A study of Mus musculus with 6 samples.

Results

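miR-221 and miR-222 are a pair of microRNAs made from neighbouring hairpins on the mouse X chromosome. Their 4 mature arms, mmu-miR-221-3p, mmu-miR-222-3p, mmu-miR-222-5p and mmu-miR-221-5p (given without the species prefix from here on), were taken by name from the 1881 mouse miRNAs on the array, and the 4 names were found in every scanner file and in the authors' value table. The samples were exosomes, the small vesicles that cells release, from the supernatant of RAW 264.7 cells, a transformed mouse macrophage line. The tested cells had received 2 µg/mL LPS, the cell wall component of Gram-negative bacteria that activates macrophages through Toll-like receptor 4, and their supernatant was taken after 72 h (3 arrays). The control cells were normal RAW 264.7 cells, for which the labels give no separate culture time (3 arrays). All 6 samples came from this 1 cell line, with no genetic change in the labels, and the vesicles were size-exclusion fractions 7 to 9. Nothing says that replicates were separate cultures, so p-values cover the spread between arrays that may only be technical.

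A miRNA gene is transcribed as a hairpin, from which Dicer cuts a duplex of a 5p and a 3p arm. The arm loaded into Argonaute, the guide, pairs with target mRNAs mainly through its seed, and the other arm is mostly degraded. For miR-221 and miR-222 the 3p arms are the usual guides. Their well-known targets are the cell cycle inhibitors Cdkn1b and Cdkn1c and the receptor tyrosine kinase Kit, and in macrophages they are known as LPS-inducible miRNAs that limit the response to repeated LPS by targeting Smarca4, a chromatin remodelling enzyme.

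The mature sequences of 3 of the 4 arms were matched in RefSeq (GRCm38.p6) and are shown because the shared seed defines the family. Capitals mark the seed, bases 2 to 8 from the 5′ end.
miR-221-3p: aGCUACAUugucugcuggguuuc
miR-222-3p: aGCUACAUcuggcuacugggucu
miR-221-5p: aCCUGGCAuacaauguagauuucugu
miR-1928: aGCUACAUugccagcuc
The 3p arms are identical over their first 8 bases and differ after them. Of 1738 mature miRNAs in the table, 3 carry this seed, the third being miR-1928 on chromosome 1. miR-1928 shares its first 10 bases with miR-221-3p, and it was detected on none of the 6 arrays. The seed of miR-221-5p was found in no other miRNA of the table.

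The hairpins lie on the minus strand, Mir221 at chrX:19146294-19146388 and Mir222 at chrX:19146893-19146971 (GRCm38.p6), with 504 bases between them. Capitals mark the mature arms listed in the table.
Mir221: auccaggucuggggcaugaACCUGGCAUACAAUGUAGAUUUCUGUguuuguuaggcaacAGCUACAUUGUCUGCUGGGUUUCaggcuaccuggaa
Mir222: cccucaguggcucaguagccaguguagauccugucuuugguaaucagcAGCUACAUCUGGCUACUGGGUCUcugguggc
No other RefSeq gene overlaps either hairpin. No other miRNA on the array has a probe within 100 kb of them.

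The array reads each arm by probes of different lengths, and the sequences matter here because probes of the 2 guides must not bind the other guide. The probes are printed 5′ to 3′ and pair with the miRNA in the opposite direction.
miR-221-3p, 20 bases: gaaacccagcagacaatgta
miR-221-3p, 19 bases: gaaacccagcagacaatgt
miR-222-3p, 14 bases: acccagtagccaga
miR-222-3p, 13 bases: acccagtagccag
miR-222-5p, 18 bases: aggatctacactggctac
miR-222-5p, 17 bases: aggatctacactggcta
miR-222-5p, 16 bases: aggatctacactggct
miR-221-5p, 21 bases: acagaaatctacattgtatgc
miR-221-5p, 20 bases: acagaaatctacattgtatg
The 20-base probe of miR-221-3p pairs with bases 4 to 23 of its miRNA and the 14-base probe of miR-222-3p with bases 8 to 21. Both therefore reach into the shared seed, the miR-222-3p probe by 1 base and the miR-221-3p probe further. The longest stretch of either of these probes that pairs with the other guide is 6 bases. No probe of the 4 arms has a full match in another mature miRNA of the table. In the mm9 positions of the scanner files the miR-221-3p probes lie at chrX:18723483-18723501 and the miR-221-5p probes at chrX:18723445-18723464. This puts the 5p probes at the lower coordinates, opposite to the RefSeq order on the minus strand, so no position within the hairpin was read from the files.

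The LPS arrays were brighter than the control arrays over the whole miRNA set, which touches every value that follows. They detected 412 to 446 miRNAs, against 213 to 228 on the control arrays, and the 75th percentile over the 198 miRNAs found on every array was 4.67-fold higher in LPS. The spiked-in RNAs were at 0.878 of control. The effective feature size fraction in the file headers was 0.812 to 0.829 on the LPS arrays and 0.6 on the control arrays, and its part in the results was not tested. Arrays were therefore divided by that percentile, and both unscaled and scaled values are given. The labels give 0.5 µg of RNA for every sample, so brightness measures neither the number of vesicles nor the miRNA per vesicle. The cause of the difference in brightness was not tested. Of the 6 macrophage and blood-cell markers listed, 5 were detected in LPS and 4 on all 6 arrays, and only miR-223-5p was detected nowhere. Their summed scaled level was 11131 to 12546 in LPS and 4212 to 4314 in control. The list shares miR-155-5p and miR-146a-5p with the LPS-induced miRNAs. The sums are mostly miR-146a-5p, at a mean scaled log2 level of 13.3 in LPS and 11.96 in control. miR-155-5p was at 10.55 in LPS and 6.37 in control. The highest of the other detected markers, miR-223-3p, was at 7.6 in LPS and 6.52 in control. The higher sum in LPS is therefore mostly that of the shared miRNAs. Both endothelial markers (miR-126a arms) and all 4 smooth muscle markers were detected on no array. Of 7 serum and erythroid markers only miR-192-5p and of 5 epithelial markers only miR-200c-3p were detected, each on the 3 LPS arrays alone. For the serum list, summed scaled levels were 101 to 110.0 in LPS and 113 to 137 in control. For the epithelial list they were 26.5 to 30.2 in LPS and 7.86 to 18.4 in control. No marker of either list was detected in control. Those control sums are therefore undetected background divided by smaller array factors than in LPS. The part of these markers in the results was not tested.

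miR-221-3p and miR-222-3p were higher in exosomes of LPS-treated cells, 8.02-fold and 6.69-fold after scaling. miR-221-3p, the guide arm of Mir221, had unscaled processed signals of 9994, 12383 and 12065 on LPS arrays 1, 2 and 3, against 274, 319 and 325 on control arrays 1, 2 and 3 (20-base probe, mean of 13 to 15 spots). The groups do not overlap, and the mean was 37.5-fold higher in LPS before scaling. On the scaled log2 scale it was at 12.31, 12.41 and 12.38 in LPS, against 9.35, 9.33 and 9.41 in control. With this probe LPS array 1 was the lowest of the LPS arrays on either scale. With the 19-base probe it was the lowest before scaling but the highest after, at 11.70 against 11.63 and 11.62. The log2 change was 3.0 (SE 0.05, 95% confidence interval 2.89 to 3.11, adjusted p = 1.46e-08 by limma, Benjamini-Hochberg over 412 miRNAs), with 3 of 3 LPS arrays above every control array.

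miR-222-3p, the guide arm of Mir222, had unscaled signals of 1385, 1824 and 1767 on LPS arrays 1 to 3, against 51.1, 57.0 and 50.2 on control arrays 1 to 3 (14-base probe, 13 to 15 spots). Here too LPS array 1 was the lowest in LPS, and the groups do not overlap. The unscaled mean was 31.4-fold higher in LPS. On the scaled log2 scale it was at 9.46, 9.65 and 9.61 in LPS and 6.93, 6.84 and 6.72 in control. The scaled log2 change was 2.74 (SE 0.08, 95% confidence interval 2.56 to 2.93, adjusted p = 1.20e-07 in limma). In control this arm was close to its limit of measurement, since 43 of the 44 spots used were well above background with the 14-base probe, but only 21 of 42 with the 13-base probe.

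**Figure D1:**
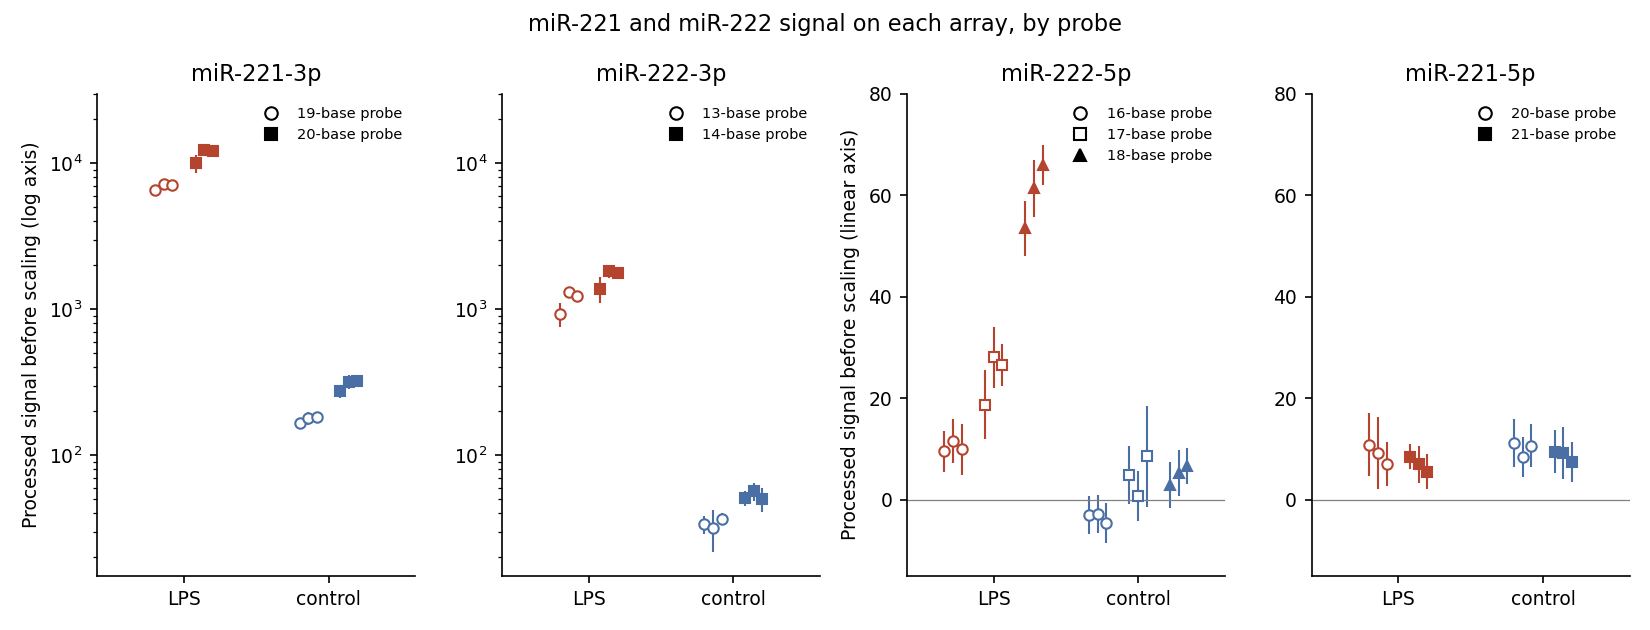
Unscaled processed signal of each probe of the 4 arms on the 3 LPS and 3 control arrays, on a log axis for the 3p arms and a linear axis for the 5p arms. Each point is 1 array, in the order of replicates 1 to 3, with the SD over its spots, and filled symbols mark the longest probe. Both 3p arms are higher on every LPS array with either probe, miR-222-5p has spots flagged well above background in LPS with its 18-base probe alone, and miR-221-5p is at most 11.2 in both groups.

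These calls are read against a background in which most miRNAs moved. Of 412 tested miRNAs 92.2% were called, 65.5% as higher with LPS and 26.7% as lower. Every LPS array was above every control array for 66.3% and below for 27.2%. Among the 198 miRNAs found on every array, 58.1% were called higher and 38.4% lower. A call as higher was therefore the usual outcome, and the size of the change says more about these arms. The median log2 change was 0.85 over the 412 and 0.77 over those 198, whose changes ran from −4.23 to 4.18. miR-221-3p ranked 7 and miR-222-3p ranked 8 of these 198, and they ranked 21 and 26 of the 412. Among the scalings their ranks of 412 ran from 8 and 11 with spiked-in RNAs to 32 and 37 with quantile normalization. They were 5 and 16 under normexp, and 53 and 59 with a summed signal per miRNA. The share of calls that were higher, 71.1% here, was 85.1% with the percentile over all miRNAs, 90.3% without scaling, 90.7% when arrays were scaled to spiked-in RNAs and 28.5% under normexp.

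**Figure D2:**
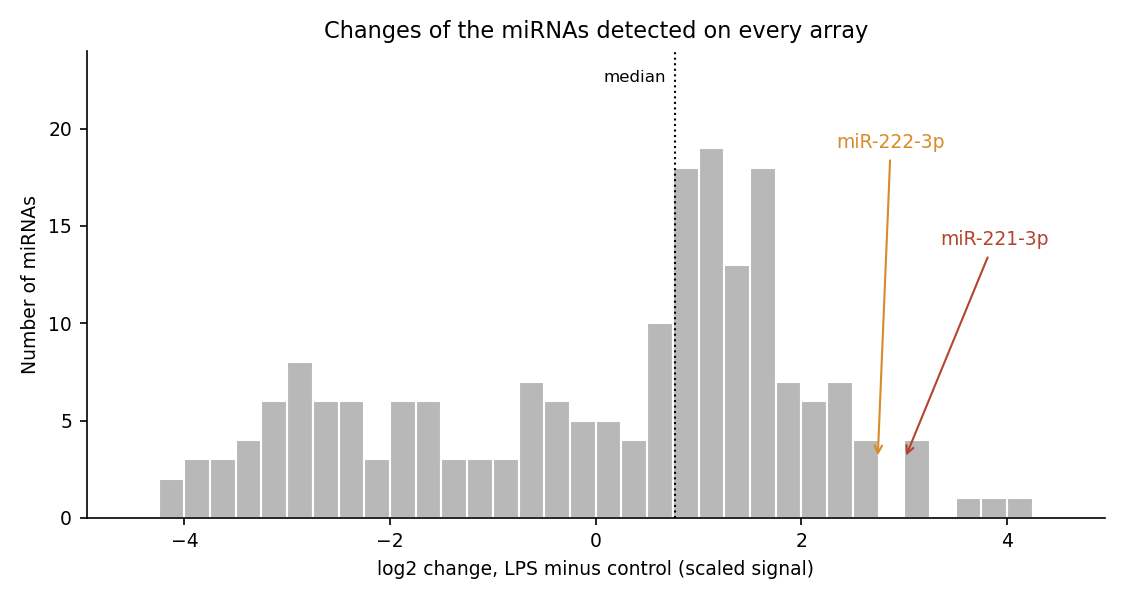
Histogram of the log2 change, LPS minus control on scaled signal, of the 198 miRNAs detected on all 6 arrays, in bins of 0.25. The dotted line is the median of 0.77, and arrows mark miR-221-3p at 3.0 and miR-222-3p at 2.74, near the upper end.

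The size of the fold depended on the scaling. miR-221-3p was at 5.42 with scaling to the spiked-in RNAs, 5.23 without scaling, 2.69 with median centring and 2.61 with quantile normalization. miR-222-3p was at 5.16, 4.97, 2.43 and 2.39 under the same settings. In the setting used here, miR-221-3p lay 2.24 and miR-222-3p 1.98 above the median of the 198 miRNAs. Dividing each array by 1 factor cannot move these distances. Among the scalings only quantile normalization could, and it gave 2.29 and 2.07. With normexp, which corrects for background by a model and adds an offset, the distances were 2.75 and 1.63. They were 3.01 and 2.76 with a summed signal per miRNA, where the median of the 198 was 0.34. That signal exceeded the miRNA's own probes by over 1% for 25.5% to 29.1% of detected miRNAs, so this median is uncertain. In the authors' value table the distances were 2.52 and 2.08. Within the first row of the slide they were 2.18 and 1.86. Both arms were higher in LPS in all 23 alternatives, and their calls held in each.

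**Figure D3:**
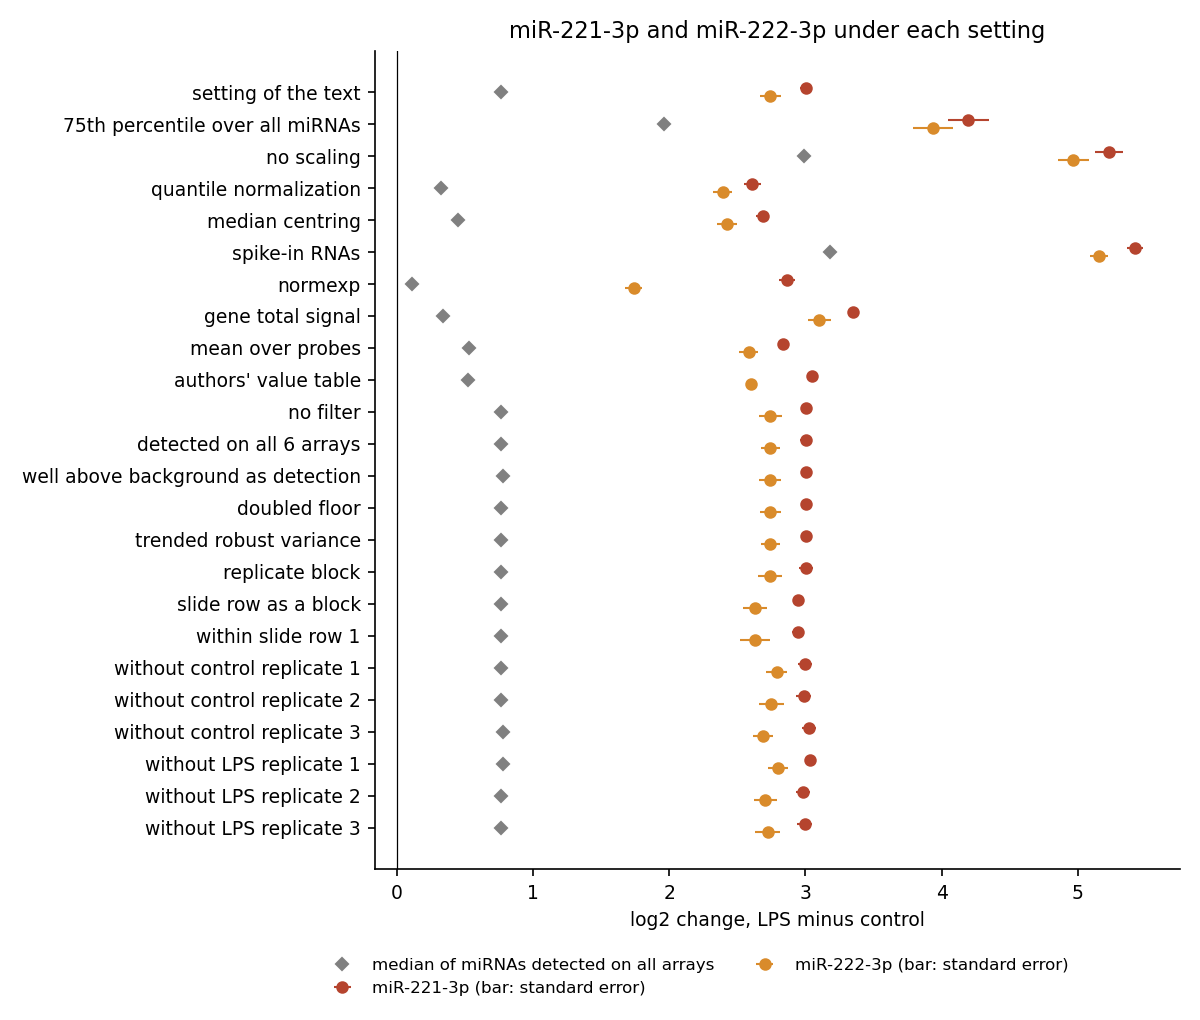
Log2 change, LPS minus control, of miR-221-3p and miR-222-3p with standard errors under the setting of the text and 23 alternatives. Diamonds give the median change of the miRNAs detected on all arrays that were tested in that setting. The members run from 1.74 to 5.42, always above the diamond.

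The 2 probes of each guide gave similar changes. In a fit over 955 probes of tested miRNAs, the 20-base and 19-base probes of miR-221-3p changed by 3.0 (SE 0.04) and 3.07 (SE 0.04). The 14-base and 13-base probes of miR-222-3p changed by 2.74 (SE 0.08) and 2.84 (SE 0.12). Within an array, the shorter probe of miR-221-3p over the longer had a log2 ratio of −0.72 ± 0.09 in LPS and −0.79 ± 0.06 in control (SD, n = 3 each; two-sided exact permutation p = 0.5). For miR-222-3p the ratio was −0.53 ± 0.05 in LPS and −0.63 ± 0.20 in control (SD, n = 3 each; exact permutation p = 0.6). The coefficient of variation over the spots of the 20-base probe of miR-221-3p was 13.9%, 3.75% and 3.77% on LPS arrays 1 to 3, and that of its 19-base probe 8.71%, 9.03% and 4.91%. For miR-222-3p it was 20.3%, 9.88% and 4.61% with the 14-base probe and 18.5%, 4.15% and 5.47% with the 13-base probe. LPS array 1 had the widest scatter for 3 of these 4 probes, the 19-base probe of miR-221-3p being the exception.

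Whether the guides changed by the same factor was asked of their ratio within each array, which dividing an array by 1 factor cannot move. The log2 ratio of miR-222-3p to miR-221-3p was −2.85, −2.76 and −2.77 on LPS arrays 1 to 3, against −2.42, −2.49 and −2.69 on control arrays 1 to 3. Only the difference between groups is read, since the probes differ in length and brightness. All LPS values lie below the control values, and the difference was −0.26, so that the ratio in LPS was 83.4% of that in control (two-sided exact permutation p = 0.1, the smallest that 3 against 3 arrays allow). With the 13-base and 19-base probes the groups overlapped, at −2.82, −2.47 and −2.53 in LPS and −2.31, −2.49 and −2.32 in control, a difference of −0.23 (exact permutation p = 0.2). The difference was −1.12 with normexp and −0.45 in the authors' value table, without overlap of the groups in either (exact permutation p = 0.1 each). Normexp adds an offset of 50, near the unscaled miR-222-3p signals of 50.2 to 57.0 in control. It therefore shrinks the change of miR-222-3p more than that of the brighter miR-221-3p. The negative control spots averaged 8.54, 5.57 and 5.29 on control arrays 1 to 3, and 3.95, 7.03 and 3.81 on LPS arrays 1 to 3. Such a background is a larger part of the dim miR-222-3p signals in control than of those in LPS. The ratios were not corrected for it, and its part in their difference was not tested. With 3 against 3 arrays the permutation test cannot reach 0.05, so it does not decide whether the guides changed by different factors.

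**Figure D4:**
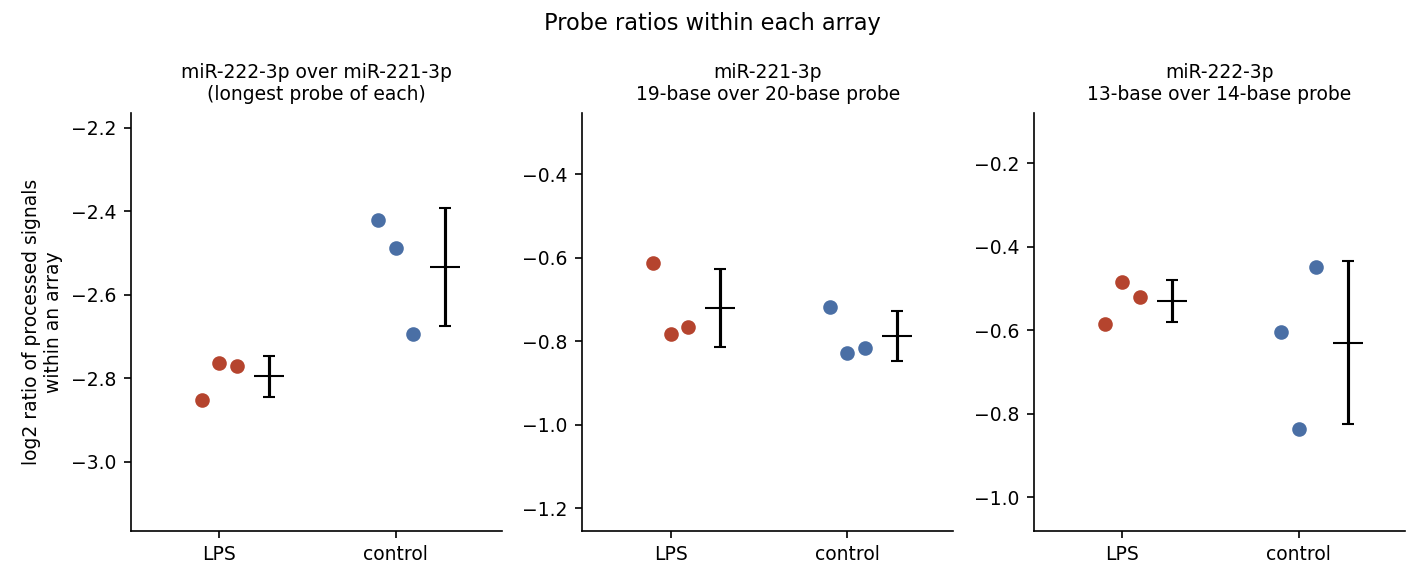
Log2 ratio of processed signals within each of 3 LPS and 3 control arrays, for miR-222-3p over miR-221-3p and for the shorter over the longer probe of each guide. Points are arrays and the bar beside them is the mean ± SD. The ratio between the guides lies lower in LPS, and the ratios between probes of 1 guide overlap between the groups.

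miR-222-5p, the opposite arm of the Mir222 duplex, was detected on 3 of 3 LPS arrays and on 0 of 3 control arrays. Its 18-base probe had unscaled signals of 53.4, 61.3 and 65.9 in LPS, against 2.82, 5.25 and 6.61 in control. All 27 spots used were well above background in LPS and none of the 28 in control. The control values lie within the range of the arrays' negative control spots, whose mean plus 3 SD was 18.9 to 24.7 on the control arrays. The 17-base probe gave 18.7, 28.1 and 26.5 in LPS and 4.89, 0.66 and 8.53 in control, and the 16-base probe stayed between −4.55 and 11.6 over all arrays. No spot of these shorter probes was flagged well above background. The 17-base signals on LPS arrays 2 and 3 nevertheless lay above the negative control spots' mean plus 3 SD of 21.2 and 15.2 there, while that on LPS array 1 lay below its 19.5. After scaling, miR-222-5p was at 27.2, 26.9 and 29.2 in LPS and 6.73, 10.6 and 13.9 in control. Its fitted change of 1.29 (adjusted p = 8.82e-05 in limma) is measured from a floor of 9.89 in scaled signal. The lowest scaled signal well above background on the dimmer control arrays was above the LPS level, so no fold can be given and the direction is not readable on the scaled values. Without scaling, the arm was at least 1.86-fold higher in LPS, and at least 2.12-fold with the spiked-in RNAs.

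miR-221-5p, the opposite arm of the Mir221 duplex, was detected on none of the 6 arrays and was not tested. Its 20-base probe had unscaled signals of 10.8, 9.14 and 6.99 in LPS and 11.2, 8.42 and 10.6 in control, and none of its spots was well above background. The groups overlap. So the cluster was read through its guides on 6 of 6 arrays, through miR-222-5p on 3 and through miR-221-5p on 0.

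The authors' value table, on a log2 scale with an unstated normalization and column medians of 2.73 to 2.74, gave the same order. miR-221-3p was at 12.6, 12.59 and 12.58 in LPS and at 9.52, 9.54 and 9.56 in control, a difference of 3.05. miR-222-3p was at 9.68, 9.71 and 9.62 in LPS and at 7.10, 7.07 and 7.03 in control, a difference of 2.60. For both guides the groups lie far apart beside the spread within each. miR-222-5p was at 3.23, 3.41 and 3.48 in LPS and at 2.90, 2.74 and 2.91 in control, and miR-221-5p at 2.88, 2.85 and 2.84 in LPS and 3.11, 3.14 and 2.96 in control. The values of both 5p arms lie near the table's medians.

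All arrays shared 1 slide and 1 scan. LPS array 1 lay with the 3 controls in the first row of the slide, and LPS arrays 2 and 3 in the second. Within the first row, with the spread supplied by the controls, miR-221-3p changed by 2.95 (SE 0.05) and miR-222-3p by 2.63 (SE 0.11), and both calls held (adjusted p = 0.000204 and 0.00139 in limma). The ratio of miR-222-3p to miR-221-3p was 0.32 lower on the log2 scale there, a comparison added after the data were seen.

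Other miRNAs known to be induced by LPS in macrophages are given for context. Of 15 listed, 11 were tested and 11 were called higher, with a median change of 1.36, against 65.5% and 0.85 over all tested miRNAs; 6 of the 11 were detected in LPS only. The 5 detected on all 6 arrays were miR-155-5p at 4.18 (SE 0.07), miR-146b-5p at 3.05 (SE 0.08), miR-21a-5p at 1.36 (SE 0.05), miR-146a-5p at 1.34 (SE 0.06) and miR-132-3p at 0.85 (SE 0.04). miR-221-3p and miR-222-3p thus lay between miR-146b-5p, a feedback regulator of Toll-like receptor signalling, and miR-21a-5p. Among other miRNAs whose probes lie on chromosome X alone, 9 were found on every array, and their changes of −0.08 to 2.40 all lay below both guides. Of these 9, 8 were called higher, against 58.1% of all miRNAs found on every array. Of the 15 tested 12 were, against 65.5% of all tested, but 6 of the 15 were detected in LPS only. The 9 included miR-652-3p at 2.40 (SE 0.05) and miR-223-3p at 1.08 (SE 0.03).

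The miRNAs with the pattern most like each guide were found by the root mean square difference of log2 values over the 6 arrays, each miRNA centred on its own mean, among the other 197 miRNAs detected on all arrays. Since the arrays fall into 2 groups, this likeness is mostly that of the change. For miR-221-3p they were miR-6931-5p (difference 0.072), miR-146b-5p (0.080), miR-494-3p (0.12), miR-222-3p (0.16) and miR-6944-5p (0.18), against a median of 1.13. For miR-222-3p they were miR-103-3p (0.085), miR-6944-5p (0.091), miR-7042-5p (0.13), miR-221-3p (0.16) and miR-6931-5p (0.16), against a median of 1.0. Each guide ranked 4 in likeness to the other.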

How the data were processed

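Exosomal RNA was labelled with Cy3 and hybridised to 1-colour Agilent mouse miRNA arrays. The deposited intensity values were background-subtracted and detrended by Agilent Feature Extraction, version 10.7.1.1 per the file headers and 9.1 per the submitters' processing notes. The authors also deposited 1 log2 value per miRNA and sample, with its normalization not stated in the labels or files. Spots flagged as outliers were left out, spots of a probe averaged, and the brightest probe kept for each miRNA. Arrays were divided by the 75th percentile over miRNAs found on every array, floored at 9.89 and put on a log2 scale. miRNAs detected on 3 of 3 arrays of a group (412) were fitted with limma 3.58.1 in R 4.3.3, with a threshold of 0.05 after Benjamini-Hochberg adjustment; the fit was tested on simulated data. A bound sets the LPS mean against the higher, per control array, of the lowest probe well above background and the arm's own signal. Members, lists, alternatives and the rules for named miRNAs (the 4 arms, the 5 closest patterns, shared seeds, 5 LPS-induced miRNAs, chromosome X) were chosen with earlier results of these data known. miR-652-3p and miR-223-3p were named after their values were seen. Same-numbered replicates did not deviate together (r = −0.40, −0.22 and −0.28 over 198 miRNAs), so they were not treated as pairs. This cannot show whether the numbers pair the samples. The number of arrays limits the precision.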

Additional observations from a re-analysis of the deposited data

Results flagged for a closer look

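The scanner files hold a summed signal per miRNA, used above only as an alternative. There miR-222-5p was far higher in LPS, at a mean of 829 ± 138, against 1.69 ± 0.087 in control (SD, n = 3 each). The LPS values were 673, 934 and 882 on arrays 1 to 3. The miR-222-5p probes that passed 3 times their error summed to only 10.2, 17.4 and 17.8 on these arrays. The excess, 663, 916 and 864, equalled the summed signal of miR-222-3p on the same array to within 0.001 on 3 of 3 arrays. On control array 1, where miR-222-5p was not detected, the summed signal of miR-223-3p was 26.1 against 8.11 from its own probes, and the excess of 18.0 again equalled that of miR-222-3p. No such excess was found for miR-223-3p on the other 5 arrays, or for miR-221-3p and miR-222-3p on any. Over all detected miRNAs, the summed signal exceeded that of the miRNA's own probes by over 1% for 25.5% to 26.0% on the LPS arrays and 28.4% to 29.1% on the control arrays. The summed signal of miR-222-5p therefore holds that of miR-222-3p and is no measure of the 5p arm.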

How the results depend on the processing

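miR-221-3p (2.61 to 5.42) and miR-222-3p (1.74 to 5.16) were higher and called in all 23 alternatives, and leaving out each replicate gave 2.98 to 3.03 and 2.69 to 2.80. miR-222-5p was at −0.67 with normexp and at 0 with well above background as detection, where it lost its call; it was at 0.49 with a doubled floor, and leaving out each replicate gave 1.20 to 1.44. Its 5.89 with the gene total is the summed signal described above. miR-221-5p was tested only with no filter, at −1.13 (adjusted p = 0.0154 in limma), where its undetected background was divided by unequal array factors. Calls of 270 higher and 110 lower became 113 and 284 with normexp, 115 higher over miRNAs detected on all 6 arrays, where fewer were tested, and 269 lower with no filter. Lower calls numbered 59 with the percentile over all miRNAs, 39 without scaling and 38 with spiked-in RNAs; the cause was not tested. Leaving out each replicate gave 263 to 273 higher and 108 to 116 lower calls. The difference in the ratio of miR-222-3p to miR-221-3p was −0.34 to −0.21 without each replicate. With the replicate block the changes were 3.0, 2.74 and 1.29, with 270 higher and 110 lower calls, so it changed no call. Whether the numbers pair the samples is not known. Arms near background are limited by signal over background: the shorter miR-222-3p probe in control and both 5p arms.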
